A study of Homo sapiens with 24 samples.

Results

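The comparison described here set SAS cells with the NRF2 variant E79Q that had received radiation together with CB-839 against the same cells left untreated. Its members were chosen by their labels, genotype SAS-Nrf2E79Q with treatment RT+CB-839 or Control, and are 6 of the 24 libraries of the series, 3 in each group. The combined group received 0.1 µM CB-839 for 24 h before 4 Gy of X-rays, and its RNA was taken 24 h after radiation. The untreated group received neither agent. SAS is an established human cell line from a squamous carcinoma of the tongue, and both groups carry the E79Q form of NRF2, the protein of the gene NFE2L2. The study profiled RNA of WT and E79Q cells under radiation, CB-839, both or neither, which gives 8 groups of 3 libraries. The remaining groups used below are WT cells with both agents, WT cells with neither, E79Q cells with radiation alone and E79Q cells with CB-839 alone. The study's design text describes only the 12 libraries of the 4 irradiated groups. Whether the unirradiated libraries were made alongside them is not stated, so treatment and time of preparation cannot be told apart here. No time of RNA collection is given for untreated cells of either genotype, so timing matched to the combined groups is not established. The labels do not say whether the 3 libraries of a group came from separate cultures, and p-values then measure the spread between libraries, which may be technical. They also do not say how the E79Q form was introduced, whether the line is 1 clone, or whether the drug was washed out at radiation, and gene counts do not show the allele.

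NRF2 is a transcription factor that is normally held by KEAP1 and sent for degradation. Glutamate 79 lies in the ETGE motif through which KEAP1 grips it, and changes there let NRF2 build up and switch on genes for glutathione, quinone detoxification and iron handling. CB-839 (telaglenastat) blocks glutaminase, the mitochondrial enzyme that turns glutamine into glutamate. Ionizing radiation breaks DNA, and cells answer it with cell cycle arrest through p53 and p21 and, in many carcinomas, with NF-kB and cytokine genes that call in myeloid cells. Shortage of amino acids is read by kinases that raise translation of ATF4, the factor that drives genes for amino acid synthesis and import.

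The 3 combined libraries held 16485102, 21673288 and 20320094 counts, and the 3 untreated libraries held 18853517, 17256034 and 18268847. Across the whole series totals ran between 14285084 and 23640197. Pearson correlations of log2 CPM (counts scaled to a common library size, with sizes corrected by the trimmed mean of M values, TMM) lay between 0.985 and 0.99 within the combined group, at 0.989 within the untreated group, and between 0.973 and 0.98 across the 2 groups. Counts on mitochondrial genes made up 3.34% to 3.55% of the combined libraries, against 1.93% to 2.64% of the untreated ones. Combined library 2 stood apart by base composition. Its GC-rich genes lay above the mean of its group (r across genes 0.492 between transcript GC content and the deviation from that mean), and combined library 1 went the other way (r = -0.39). Squamous markers were present in both groups, with KRT5 at 662 to 851 CPM in the combined libraries and 880 to 934 CPM in the untreated ones. KRT14 and KRT6A were lower, at 13.3 to 14.0 CPM and 6.35 to 8.82 CPM in the untreated libraries. The leukocyte genes PTPRC, LYZ and CD3E and the fibroblast gene LUM were at 0 in all 6. Endothelial VWF measured 2.76 to 3.33 CPM in the combined libraries and 1.47 to 2.18 CPM in the untreated ones. The leukocyte gene CD14 measured 0.197 to 0.416 CPM in combined and 0.396 to 1.47 CPM in untreated libraries. CD68, PECAM1, CDH5 and PDGFRB stayed under 1 CPM. COL3A1, a fibroblast collagen, had counts in untreated library 2 alone (67 counts, 3.94 CPM).

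The combined treatment changed the RNA of a large share of genes in E79Q cells. Inflammatory mediators, amino acid stress genes, the cell cycle inhibitor p21, fibronectin, secreted proteases and other factors of senescent cells, lysosomal genes and class I antigen presentation genes rose. Fatty acid and cholesterol synthesis genes, heat shock proteins, ribosome assembly factors, and genes of DNA replication, mitosis and double-strand break repair fell. Of 15956 genes tested by edgeR's quasi-likelihood test, 5988 were called at an adjusted p under 0.05, or 37.5%, of which 3097 were higher (19.4% of genes tested) and 2891 lower (18.1%). Changes above 2-fold were less even, with 727 genes higher and 217 lower. Among genes with a mean of at least 2 CPM, those numbers were 316 and 67. All 3 combined libraries lay above all 3 untreated ones for 3457 genes (21.7%) and below them for 3037 (19.0%). The median log2 fold change of all genes tested was -0.0072. A single number in parentheses after a gene below, or after "rose by" or "fell by", is a log2 fold change of combined over untreated E79Q cells unless another contrast is named.

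**Figure D1:**
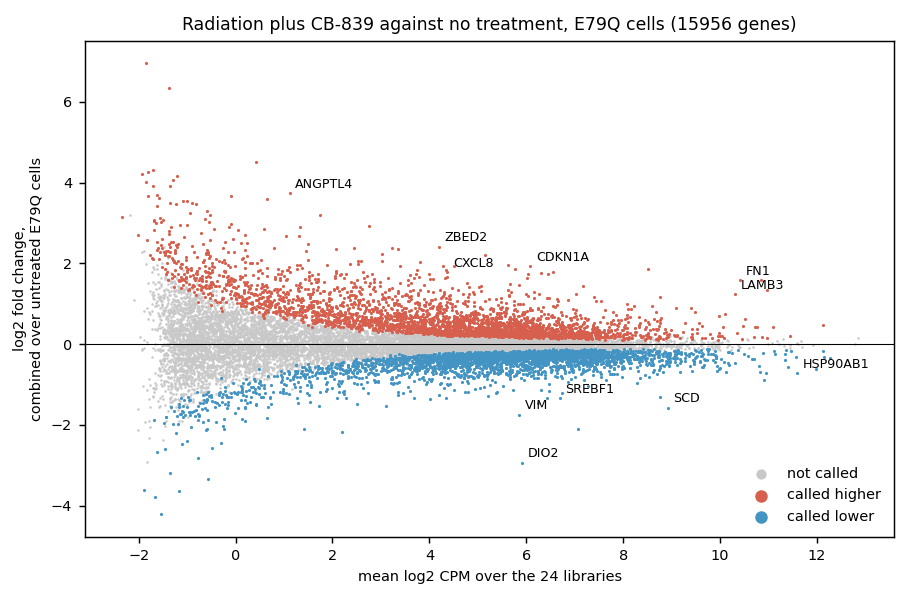
Log2 fold change of the combined over the untreated E79Q libraries (vertical axis) against mean log2 CPM over the 24 libraries (horizontal axis), 1 point per gene tested. The 3097 genes called higher are red, the 2891 called lower are blue, and the largest changes among well-counted genes include ANGPTL4 upward and DIO2 downward.

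ANGPTL4, which codes for a secreted inhibitor of lipoprotein lipase, had the largest rise among protein-coding genes of mean log2 CPM 1 or more. It measured 8.12, 12.2 and 10.0 CPM in the combined libraries, against 0.544, 1.06 and 0.679 CPM in the untreated ones, a log2 fold change of 3.74 (SE 0.28, edgeR adjusted p 3.6e-11). ZBED2, a zinc finger repressor of transcription, had 48.7, 51.4 and 50.3 CPM in combined libraries and 9.69, 8.35 and 10.1 CPM in untreated ones. The 2 groups did not overlap for either gene. The other large rises were those of RAP1GAP2, a GTPase activator for Rap1 (2.92), the acute-phase protein gene SAA1 (2.68), the interleukin subunit EBI3 (2.68), TMEM255B (2.48), the small GTPase RRAD (2.38), the serpin SERPINB7 (2.38), the TNF receptor adaptor TRAF1 (2.36), the antimicrobial ribonuclease RNASE7 (2.36), LRG1 (2.31) and the stress gene FAM129A (2.23), all as log2 fold changes.

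DIO2, the enzyme that activates thyroid hormone, fell most, with 18.6, 12.4 and 19.9 CPM in the combined libraries and 115, 133 and 139 CPM in the untreated ones, a log2 fold change of -2.93 (SE 0.12, edgeR adjusted p 1.63e-16). VIM, the mesenchymal intermediate filament vimentin, measured 49.8, 55.9 and 51.2 CPM in combined libraries, against 181, 178 and 169.8 CPM in untreated ones (-1.75 on the log2 scale, SE 0.072, edgeR adjusted p 2.28e-16). Every untreated library held over 3 times the vimentin of every combined one. COL1A1, the type I collagen chain, had 3.07, 3.05 and 3.40 CPM in the combined libraries and 7.29, 29.5 and 6.51 CPM in the untreated ones, and its log2 fold change of -2.18 was -1.12 without untreated library 2, the library with COL3A1 counts. Further falls, as log2 fold changes, were those of the fatty acid desaturase SCD (-1.57), PLEKHO1 (-1.54), MN1 (-1.53), the BRCA1-A complex scaffold ABRAXAS1 (-1.48), UACA (-1.45), the lysyl oxidase relative LOXL4 (-1.45), the G protein regulator RGS4 (-1.42), the epithelial ETS factor ELF3 (-1.37) and the linker histone H1F0 (-1.34).

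**Figure D2:**
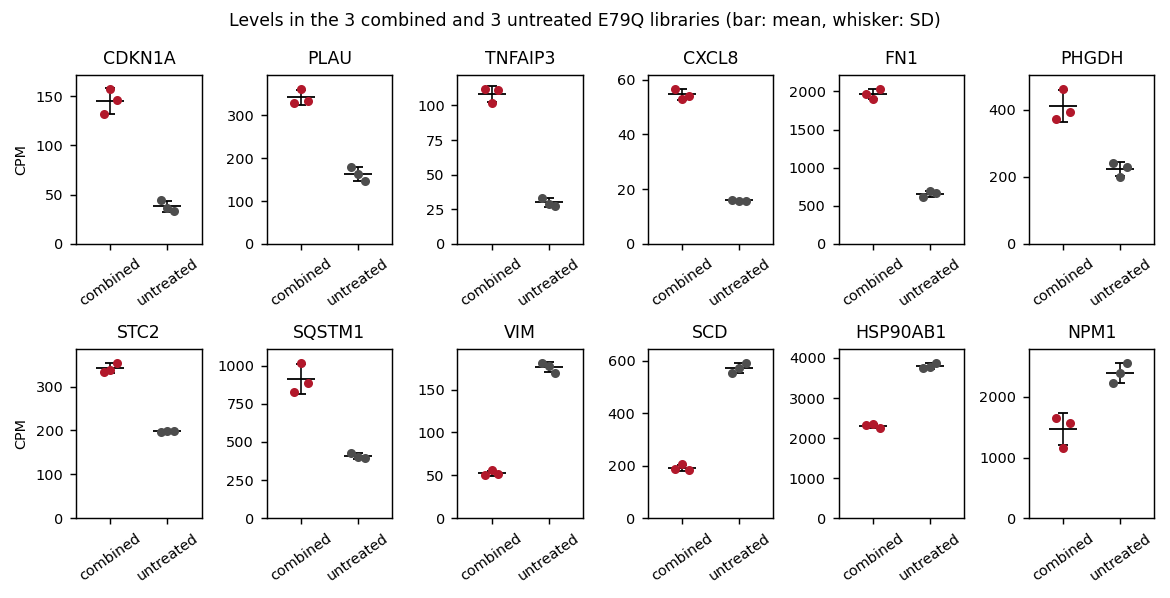
CPM of 12 genes in each of the 3 combined (red, left) and 3 untreated (grey, right) E79Q libraries, with the mean as a bar and the SD as a whisker, each panel on its own axis starting at 0. In each panel the 2 groups are separate, with p21 (CDKN1A), PLAU, TNFAIP3, CXCL8 and FN1 higher and VIM, SCD, HSP90AB1 and NPM1 lower under the combined treatment.

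CDKN1A codes for p21, the inhibitor of cyclin-dependent kinases through which p53 halts the cell cycle (chromosome 6, 36676460 to 36687339, GRCh38). It had 132, 158 and 146 CPM in the combined libraries, against 44.4, 36.4 and 33.8 CPM in the untreated ones, and its log2 fold change was 1.92 (SE 0.084, edgeR adjusted p 7.71e-16). The lowest combined value was about 3 times the highest untreated one. Of 30 p53 targets tested, 12 rose and 6 fell, with a median log2 fold change of 0.07, which was 0.15 without combined library 2 and 0.13 without untreated library 2. The stress cytokine GDF15 averaged 15.0 ± 1.92 CPM in combined libraries and 5.25 ± 0.31 CPM in untreated ones (SD, n = 3 each; log2 fold change 1.52), and the pro-apoptotic BBC3, also called PUMA, rose by 1.54 on the log2 scale. Among the members that fell were the cyclin CCNG1 (-0.71), the kinase PLK2 (-0.54) and the ribonucleotide reductase subunit RRM2B (-0.45). MDM2, a ubiquitin ligase, had a log2 fold change of 0.055 (SE 0.085, edgeR adjusted p 0.655), which became 0.21 and was called once combined library 2 was left out.

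The BCL2 family sets the threshold for mitochondrial apoptosis. Of its 18 members tested, 9 rose and 1 fell (median 0.22). Among the risers were the pro-apoptotic BBC3, BMF at 6.20, 6.75 and 5.02 CPM in combined libraries against 2.72, 2.17 and 3.23 CPM in untreated ones (1.14 on the log2 scale), PMAIP1, also called NOXA (0.55), and BID (0.54). BCL2A1, an anti-apoptotic member that NF-kB is known to induce, rose by 4.22 from a level of a few counts, and it is named here after its values were seen. The member that fell was BNIP3 (-0.17), a call lost without combined library 2, without untreated library 3 or with total-count scaling. The family's split was 9 higher and 3 lower without combined library 2, and 8 and 4 with GC and length trends removed.

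Genes that carry cells through S phase and mitosis were lower after the combined treatment. Of 36 replication and G1/S genes tested, 21 fell and 1 rose (median -0.27). PCNA, the sliding clamp of DNA polymerases, had 149, 153 and 143 CPM in combined libraries and 205, 209 and 209 CPM in untreated ones, a log2 fold change of -0.48 (SE 0.051, edgeR adjusted p 1.9e-08). The nucleotide enzyme TYMS (-0.52) and the helicase subunit MCM4 (-0.27) fell too. These falls are all under 1.5-fold in size, and the groups did not overlap for PCNA. CCNE1, cyclin E1, was the member that rose (0.27), a call lost without combined library 2.

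Mitotic genes fell in 17 of 32 cases and rose in 2 (median -0.20). CENPE, the kinesin that aligns chromosomes, had 41.0, 20.3 and 27.6 CPM in the combined libraries and 52.8, 64.7 and 75.2 CPM in the untreated ones, and its log2 fold change was -1.13 (SE 0.19, edgeR adjusted p 2.44e-05). MKI67, the proliferation antigen Ki-67, averaged 380.2 ± 70.7 CPM in combined libraries, against 531 ± 43.0 CPM in untreated ones (SD, n = 3 each), a log2 fold change of -0.48. CDC20, which activates the anaphase ubiquitin ligase (-0.36), and PLK1, a mitotic kinase (-0.35), fell by less. UBE2C, the ubiquitin-conjugating enzyme that works with CDC20, rose by 0.23. CENPE was lowest in combined library 2, the library that stood apart by GC content. Left out together with untreated library 1, it leaves 11 mitotic genes lower and 2 higher.

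Of 35 genes for repair of double-strand breaks and crosslinks, 18 fell and 2 rose (median -0.25, and -0.13 without combined library 2). XRCC5 and XRCC6, which code for the Ku proteins that bind broken ends, fell together. XRCC5 had 438, 383 and 422 CPM in combined libraries and 511, 537 and 545 CPM in untreated ones, a log2 fold change of -0.36 (SE 0.047, edgeR adjusted p 9.66e-07), and XRCC6 had one of -0.30. RAD54B (-0.65) and XRCC2 (-0.44), which act in homologous recombination, fell, and XRCC3, another member of that pathway, rose by 0.51. CHEK2, the checkpoint kinase, rose by 0.44, which was not called without combined library 2 or without untreated library 1. The number that fell was 11 without combined library 2 or without untreated library 2.

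NF-kB targets and the cytokines that attract and feed myeloid cells rose in most cases. Of 22 chemokines and cytokines, 18 rose and 2 fell (median 1.18), and of 23 NF-kB targets and feedback genes, 18 rose and 1 fell (median 0.63). Both are read against 19.4% of all genes higher. The promoters of the neutrophil chemokines are shown because they share an exact 9-letter NF-kB motif near the start of transcription. The letters GGAATTTCC were searched on both strands of the 250 bases before each RefSeq start (GRCh38.p14). They occurred in 4 of 16 promoters matched from the cytokine list (25.0%) and in 6 of 20 from the NF-kB list (30.0%), against 0.413% of 35116 promoters of all genes and 0.367% of those of tested genes. The NF-kB list holds known targets of NF-kB, so a high share there was built in. The cytokine list also holds chemokines known as NF-kB targets, and only 1 exact form of the motif was searched. Its share was therefore not a separate test either. The promoters of CXCL1, CXCL2 and CXCL3 are near-identical, so their matches are not separate cases. Of the 6 in the NF-kB list, NFKBIA (0.62), NFKBIZ (0.88), ICAM1 (1.15) and MAP3K8 (1.70) rose. NFKB1 (0.055, edgeR adjusted p 0.458) and REL (-0.10, edgeR adjusted p 0.576) were not called. Each sequence below is read 5′ to 3′ on the gene's strand and ends at the base before the start, with the motif in capitals. CXCL1 is at chr4:73869287-73869392, plus strand, CXCL2 at chr4:74099196-74099300, minus strand, CXCL3 at chr4:74038690-74038795, minus strand and CXCL8 at chr4:73740450-73740568, plus strand.
CXCL1: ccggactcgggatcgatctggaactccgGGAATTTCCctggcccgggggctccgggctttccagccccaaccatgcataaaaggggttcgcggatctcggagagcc
CXCL2: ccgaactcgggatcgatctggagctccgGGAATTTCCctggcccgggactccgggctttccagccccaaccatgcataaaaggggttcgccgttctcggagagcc
CXCL3: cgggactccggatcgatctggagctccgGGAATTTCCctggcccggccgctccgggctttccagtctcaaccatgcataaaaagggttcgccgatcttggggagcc
CXCL8: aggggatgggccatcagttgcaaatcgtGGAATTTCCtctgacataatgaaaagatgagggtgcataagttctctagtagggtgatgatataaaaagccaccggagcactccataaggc
The motif began 78, 77, 78 and 91 bases before the start in CXCL1, CXCL2, CXCL3 and CXCL8. A match describes the letters only.

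CXCL8, interleukin-8, the main neutrophil attractant, had 56.8, 53 and 54.0 CPM in the combined libraries, against 16.1, 15.7 and 15.8 CPM in the untreated ones, a log2 fold change of 1.78 (SE 0.078, edgeR adjusted p 7.71e-16). CXCL1 averaged 80.4 ± 2.94 CPM in combined libraries and 35.1 ± 5.26 CPM in untreated ones (SD, n = 3 each; 1.20). CXCL2 (1.21) and CXCL3 (1.62) rose, and reads of these near-identical chemokines may be split between them. The colony-stimulating factors for granulocytes and macrophages moved the same way. CSF2, or GM-CSF, had 13.7, 18.4 and 17.6 CPM in the combined libraries and 5.50, 2.94 and 4.08 CPM in the untreated ones (1.98 on the log2 scale, SE 0.17, edgeR adjusted p 7.05e-10), without overlap. CSF3, or G-CSF, rose by 1.41 and CSF1, or M-CSF, by 0.42. IL6 averaged 10.2 ± 0.932 CPM under both agents and 4.06 ± 0.381 CPM without treatment (SD, n = 3 each; 1.32), IL11 rose by 1.40 and the lymphocyte and dendritic cell chemokine CCL20 by 1.61. The 2 members that fell were IL24 (-1.0) and TGFB2 (-0.89).

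Within the NF-kB list, TNFAIP3, the A20 protein that shuts the pathway down, had 112, 102 and 111 CPM in combined libraries and 33.4, 29.1 and 27.5 CPM in untreated ones, a log2 fold change of 1.85 (SE 0.072, edgeR adjusted p 6.41e-17). The adhesion molecule ICAM1 had 108, 123 and 119.9 CPM in combined libraries, against 55.0, 51.9 and 51.0 CPM in untreated ones (1.15), and NFKB2, a subunit of the second NF-kB arm, rose by 0.92. No untreated library reached the level of a combined one for these 3 genes. BCL3, a co-regulator of NF-kB, fell (-0.38), and that call was lost without combined library 3.

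Growth factor and immediate early genes were also higher. Of 21 immediate early genes, 15 rose and 0 fell (median 0.59), among them the transcription factor KLF4 (1.74), the phosphatase DUSP1 (0.91), IER3 (0.65) and MYC (0.59). That list gave 12 higher and 1 lower without combined library 2, and 12 and 0 without untreated library 3 (median 0.41). Of 20 EGFR ligands and MAPK feedback genes, 15 rose and 2 fell (median 0.37). HBEGF, a ligand of EGFR, measured 125, 138 and 129.9 CPM in combined libraries and 55.8, 52.3 and 52.5 CPM in untreated ones, a log2 fold change of 1.29 (SE 0.068, edgeR adjusted p 4.11e-14). The ligand AREG rose by 0.81 and the ERK phosphatases DUSP4 and DUSP6 by 1.01 and 0.82, while the ligands NRG1 (-0.81) and EREG (-0.33) fell. EREG was not called with GC and length trends removed (-0.072).

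Secreted proteases, their inhibitors and other factors seen in senescent cells rose in 17 of 27 cases and fell in 6 (median 0.69). PLAU, the protease urokinase (chromosome 10, 73909177 to 73917497), had 329.8, 363 and 333 CPM in the combined libraries and 179.5, 164 and 148 CPM in the untreated ones, a log2 fold change of 1.06 (SE 0.064, edgeR adjusted p 5.67e-13), and the groups did not overlap. The protease ADAMTS1 rose by 1.17 and IGFBP3 by 1.25. LMNB1, the nuclear lamin that is lost in senescence, fell (-0.57), as did IGFBP6 (-0.87), TIMP3 (-0.81) and IGFBP4 (-0.44). TGF-beta response genes rose in 9 of 19 cases and fell in 1 (median 0.14), led by PMEPA1 (1.77), the activin chain INHBA (1.25) and the binding protein LTBP2 (0.87), with ID1 lower (-0.54).

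Matrix genes split. Of 29 mesenchymal genes, 9 rose and 9 fell, and their median of -0.07 turned positive (0.093) without untreated library 2. FN1, fibronectin, had 1965, 1895 and 2039 CPM in combined libraries, against 613, 688 and 667 CPM in untreated ones, a log2 fold change of 1.58 (SE 0.054, edgeR adjusted p 4.93e-18). The collagen crosslinking enzyme LOX (1.94), the collagen chain COL6A2 (1.28) and tenascin-C, TNC (1.04), rose as well, whereas VIM, COL1A1, LOXL2 (-0.41) and SPARC (-0.23) fell. Among basal squamous genes 7 of 20 rose and 8 fell: KRT14 (1.42), the laminin-332 chain LAMB3 (1.24) and the hemidesmosome collagen COL17A1 (0.69) were higher, and TP63 (-0.36), KLF5 (-0.38), ITGA6 (-0.44) and KRT5 (-0.28) lower. LAMB3 had 2160.2, 2437 and 2356 CPM in combined libraries and 1042, 986 and 918 CPM in untreated ones, without overlap. Squamous differentiation genes rose in 9 of 28 cases and fell in 6 (median 0.18), with OVOL1 (1.64), KLK5 (1.14) and KRT6A (1.10) higher and SCEL (-0.79) and DSC3 (-0.60) lower. YAP and TEAD targets gave 9 higher and 6 lower of 24, near an even split (median -0.03), with CTGF at 0.87 and AJUBA at -0.41. In the Notch pathway 8 of 16 rose and 2 fell, with NOTCH3 (1.24) and its ligand JAG1 (0.78) among the risers. The median of the Notch list was 0.23, and it was 0.073 without combined library 2, with 7 higher and 4 lower, and 0.14 without untreated library 1. With GC and length trends removed 6 rose and 6 fell.

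Class I antigen presentation genes rose in 16 of 24 cases and fell in 0 (median 0.41). B2M, the shared light chain of class I molecules, had 328, 354 and 328 CPM in the combined libraries and 224, 231 and 237 CPM in the untreated ones, a log2 fold change of 0.55 (SE 0.051, edgeR adjusted p 2.33e-09). HLA-B (1.46) and HLA-C (0.71) rose, with the reservation that reads of HLA genes can be split among similar copies. CD274, which codes for PD-L1, the ligand that restrains T cells, averaged 19.6 ± 2.57 CPM in combined libraries, against 11.7 ± 1.07 CPM in untreated ones (SD, n = 3 each; 0.74 on the log2 scale, SE 0.12, edgeR adjusted p 1.21e-05). Of 11 checkpoint ligands 7 rose, including the phagocytosis signals CD24 (1.07) and CD47 (0.36), and 2 fell, VSIR (-1.19) and NT5E (-0.28). Interferon response genes gave 12 higher and 4 lower of 31 (median 0.21), with IFI6 (0.86), GBP1 (0.83) and OAS3 (0.39) up and SAMD9 (-1.01) and IFIT5 (-0.56) down. The 4 lower became 2 without untreated library 1.

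The amino acid stress programme moved mostly in 1 direction. Of 34 ATF4 targets tested, 28 rose and 0 fell, and the median log2 fold change was 0.67. With GC and length trends removed, 28 rose and 2 fell. PHGDH, the first enzyme of serine synthesis, had 372, 464 and 395 CPM in the combined libraries and 242, 201 and 229 CPM in the untreated ones, a log2 fold change of 0.87 (SE 0.066, edgeR adjusted p 4.57e-11). ASNS, asparagine synthetase, had 4.75, 5.04 and 4.53 CPM in combined libraries, against 2.56, 2.70 and 1.53 CPM in untreated ones (1.08 on the log2 scale, SE 0.22, edgeR adjusted p 0.000403). The groups did not overlap for either gene. The CHOP gene DDIT3 averaged 16.4 ± 0.769 CPM in combined libraries and 6.40 ± 1.45 CPM in untreated ones (SD, n = 3 each; 1.35). Higher as well were the amino acid carrier SLC1A4 (2.07), the mitochondrial folate enzyme ALDH1L2 (1.24) and the glutathione-degrading CHAC1 (1.34). The mTORC1 brake SESN2 (1.05), PSAT1 (0.68), PYCR1 (0.67) and STC2 (0.79) rose too. ATF4 itself, which is controlled mainly at translation, had a log2 fold change of 0.15, just past the threshold (edgeR adjusted p 0.0455) and lost without untreated library 1, untreated library 2 or combined library 2. With DESeq2 its adjusted p was 0.0529, and with GC and length trends removed the log2 fold change was 0.075 and not called. SLC7A11, the cystine carrier, had a log2 fold change of 0.042 (SE 0.12, edgeR adjusted p 0.807), and it was called at 0.24 once combined library 2 was left out.

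Promoters of 3 ATF4 targets are shown because they hold letters that match the composite element, which ATF4 is known to bind with a C/EBP partner. Binding was not measured. The letters TGATGNAA, with N any base, were found on either strand within 250 bases before the start in 3 of 27 promoters matched from the list (11.111%), against 3.144% of all promoters and 1.699% of promoters of tested genes. ASNS is at chr7:97872409-97872504, minus strand, CHAC1 at chr15:40953234-40953470, plus strand and ATF3 at chr1:212565188-212565406, plus strand, with the element in capitals. In CHAC1 it lies on the opposite strand.
ASNS: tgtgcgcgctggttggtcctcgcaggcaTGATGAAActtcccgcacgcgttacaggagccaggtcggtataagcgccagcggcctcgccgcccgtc
CHAC1: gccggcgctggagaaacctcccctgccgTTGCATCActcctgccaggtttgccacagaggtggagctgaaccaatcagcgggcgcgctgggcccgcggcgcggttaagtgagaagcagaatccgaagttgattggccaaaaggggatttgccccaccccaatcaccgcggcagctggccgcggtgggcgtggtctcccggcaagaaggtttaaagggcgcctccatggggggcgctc
ATF3: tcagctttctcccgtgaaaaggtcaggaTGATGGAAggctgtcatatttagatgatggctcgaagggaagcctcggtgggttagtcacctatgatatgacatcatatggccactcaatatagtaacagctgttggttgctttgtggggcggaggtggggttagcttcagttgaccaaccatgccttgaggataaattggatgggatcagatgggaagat
The element began 68 bases before the start in ASNS, 209 in CHAC1 and 191 in ATF3. ATF3 rose by 1.03 on the log2 scale. The list holds known ATF4 targets, so a share above that of all promoters was built in.

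Other parts of amino acid and protein handling moved less evenly. Glutamine and glutamate genes gave 9 higher and 6 lower of 26 (median 0.10, and -0.013 without combined library 1). The transaminase GPT2 (0.90) and the glutamine carrier SLC1A5 (0.51) rose, and the nucleotide enzymes PFAS (-0.36) and CTPS1 (-0.26) fell. In the serine and one-carbon list 6 of 14 rose and 4 fell. Cytosolic aminoacyl-tRNA synthetases gave 9 higher and 4 lower of 20 (median 0.09, and 0.19 without combined library 2 or 0.15 without untreated library 1): CARS (0.75), AARS (0.56), WARS (0.53) and SARS (0.51) rose, and RARS (-0.47), DARS (-0.45), VARS (-0.35) and FARSB (-0.36) fell. Unfolded protein response genes rose in 18 of 27 cases and fell in 0 (median 0.27), with the sensor ERN1 (0.83) and the degradation factor HERPUD1 (0.76) among them.

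NRF2 targets for detoxification, iron and transport rose in 18 of 30 cases and fell in 1 (median 0.33), while the glutathione and thioredoxin targets gave 4 higher and 1 lower of 13 (median 0.07, and 0.13 without combined library 2). HMOX1, heme oxygenase, averaged 9.65 ± 1.34 CPM in the combined libraries and 3.85 ± 0.881 CPM in the untreated ones (SD, n = 3 each), a log2 fold change of 1.33 (SE 0.16, edgeR adjusted p 2.39e-07). FTH1, the ferritin heavy chain, had 1075, 1278 and 1137 CPM in combined libraries, against 674, 606 and 601 CPM in untreated ones (0.89 on the log2 scale, SE 0.063, edgeR adjusted p 1.34e-11). NQO1, the quinone reductase used as the standard readout of NRF2, had 695, 842 and 728 CPM in combined libraries and 612, 574 and 574 CPM in untreated ones (0.36 on the log2 scale, SE 0.065, edgeR adjusted p 6.87e-05). The rises of FTH1 and HMOX1 exceeded 1.5-fold and that of NQO1 did not. AKR1C1 rose by 0.69 and AKR1C2 had a log2 fold change of -0.082, 2 close paralogs whose reads may be exchanged, and OSGIN1 rose by 0.84. GCLM, a subunit of the first enzyme of glutathione synthesis, measured 329.8, 286 and 321 CPM in combined libraries and 329, 316 and 297 CPM in untreated ones, a log2 difference of -0.0077 (SE 0.052, edgeR adjusted p 0.922). TXNRD1, thioredoxin reductase, was lower (-0.14), a call lost without combined library 2.

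NFE2L2 itself had 168, 128 and 152 CPM in the combined libraries and 131, 137 and 135 CPM in the untreated ones, a log2 difference of 0.15 (SE 0.065, edgeR adjusted p 0.0651) that reached 0.25 and was called without combined library 2. KEAP1 had a log2 difference of 0.08 (SE 0.065, edgeR adjusted p 0.364). Of the 13 genes of NRF2 and its partners 6 rose and 1 fell. SQSTM1, the autophagy receptor p62 that binds KEAP1, had 828, 1019 and 885 CPM in combined libraries, against 430.4, 401 and 393 CPM in untreated ones (1.16 on the log2 scale, SE 0.063, edgeR adjusted p 6.28e-14), and the small MAF partners MAFF, MAFG and MAFK rose by 0.40, 0.39 and 0.46. NADPH and pentose phosphate genes gave 4 higher and 4 lower of 11, the 4 higher becoming 2 without combined library 2. IDH1 (-0.83) fell and malic enzyme, ME1 (0.29), rose.

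Lipid synthesis was lower. SCD, which puts the double bond into stearate, had 188, 206 and 185 CPM in the combined libraries and 553, 574 and 592 CPM in the untreated ones, a log2 fold change of -1.57 (SE 0.046, edgeR adjusted p 1.97e-19). SREBF1, the factor that drives fatty acid synthesis genes, had 52.3, 56.6 and 52.0 CPM in combined libraries, against 138, 133 and 134 CPM in untreated ones (-1.33 on the log2 scale, SE 0.062, edgeR adjusted p 2.5e-15). Both were separated by more than 2-fold between the groups. Of 12 fatty acid synthesis genes 10 fell and 1 rose, and the riser was ACSS2 (0.63), which activates acetate. Of 24 cholesterol synthesis genes 16 fell and 0 rose (median -0.30), with INSIG1 (-1.19), STARD4 (-1.32) and SQLE (-0.31) among them. In the sterol efflux and PPAR list 7 of 17 rose and 5 fell: ANGPTL4, CPT1A, which brings fatty acids into mitochondria (0.84), and ACADVL (0.84) were higher, and the cholesterol exporter ABCA1 (-0.73) and PPARG (-0.69) lower.

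Heat shock proteins fell in 14 of 16 cases and rose in 0 (median -0.54). HSP90AB1, a cytosolic chaperone of kinases and receptors, had 2315, 2357 and 2263 CPM in combined libraries and 3753, 3764 and 3879.7 CPM in untreated ones, a log2 fold change of -0.72 (SE 0.033, edgeR adjusted p 2.5e-15). The mitochondrial pair HSPD1 (-0.52) and HSPE1 (-0.64) fell, and so did HSPA8 (-0.57). MYC and ribosome assembly genes fell in 21 of 31 cases and rose in 2 (median -0.28). The nucleolar proteins NPM1, with 1658, 1165 and 1574 CPM in combined libraries against 2221, 2400.2 and 2562 CPM in untreated ones (-0.71 on the log2 scale, SE 0.081, edgeR adjusted p 8.22e-08), and NCL (-0.69) fell, while MYC itself rose.

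Transcripts of the mitochondrial genome were higher, 10 of 13 called higher and 0 lower (median 0.45). Without untreated library 1, 8 were called higher and the median was 0.32. MT-ND1, a complex I subunit, had 3185, 3264 and 3458 CPM in the combined libraries and 1036, 1397 and 1479 CPM in the untreated ones, a log2 fold change of 1.34 (SE 0.097, edgeR adjusted p 2.25e-11), and 1.21 without untreated library 1, the lowest. Nuclear respiratory chain genes gave 9 higher and 3 lower of 33 (median 0.11, and 0.057 without combined library 2), and 5 higher without untreated library 2, with NDUFA1 at 0.59 and ATP5F1A at -0.30. TCA cycle genes gave 5 higher and 6 lower of 27, near the share of all genes in each direction. Citrate synthase, CS (-0.42), and the succinate ligase SUCLA2 (-0.50) fell, and SDHA (0.37) rose. Of 29 hypoxia and glycolysis genes 6 rose and 9 fell: LDHA (-0.53), SLC2A1 (-0.47) and GAPDH (-0.31) were lower, and ANGPTL4, NDRG1 (1.5) and PFKFB4 (1.23) higher. That list gave 6 higher and 13 lower without combined library 2, and 6 and 14 with GC and length trends removed. Without untreated library 3 it gave 5 and 6. Lysosome and autophagy genes rose in 19 of 29 cases and fell in 0 (median 0.32), with GABARAPL1 (1.07), the sialidase NEU1 (0.76) and cathepsin B, CTSB (0.59). Among 6 metallothionein genes 1 fell and 0 rose.

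**Figure D3:**
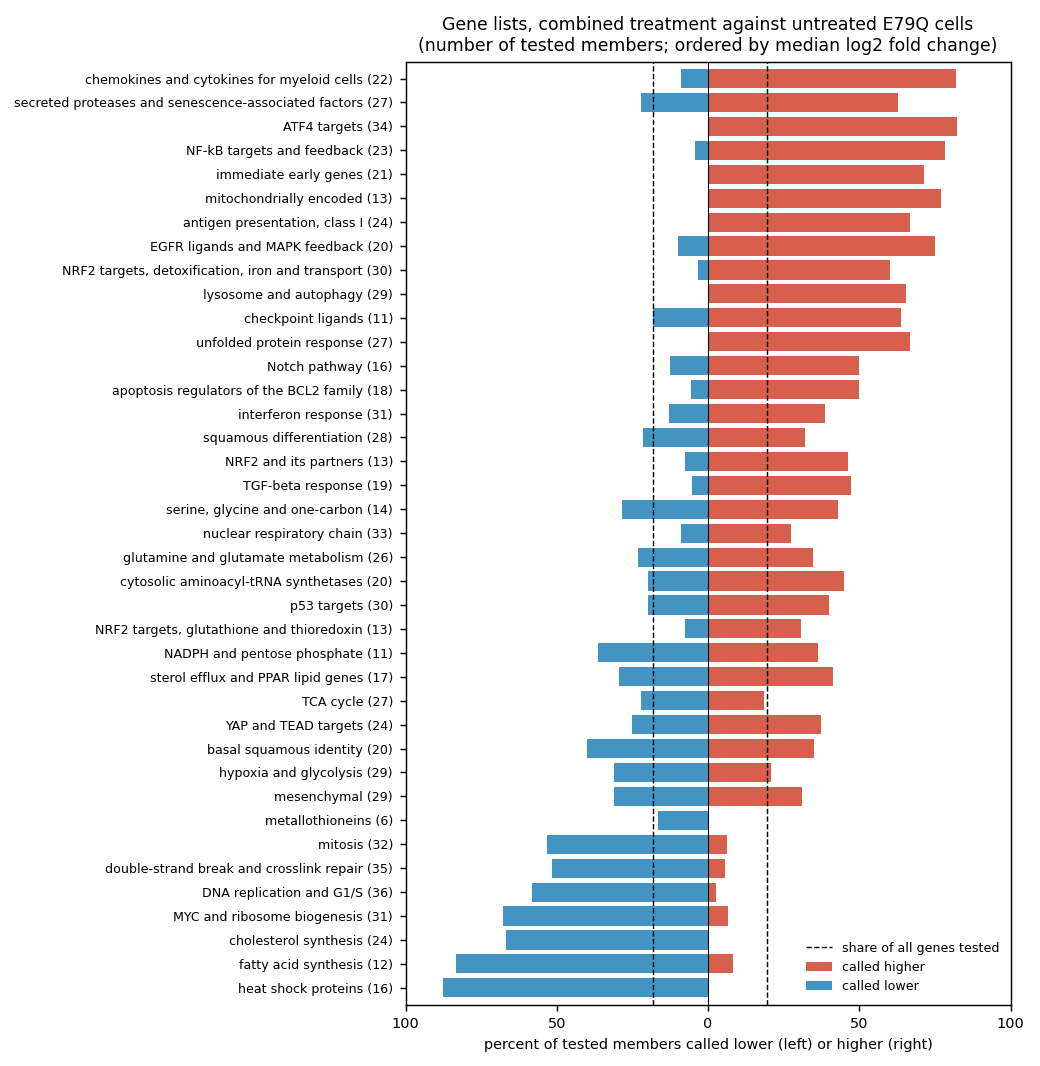
Percent of tested members of 39 gene lists called lower (blue, left) or higher (red, right) in combined against untreated E79Q cells, with the number of members tested in parentheses and lists ordered by median log2 fold change. Dashed lines mark the shares of all genes tested, 18.1% lower and 19.4% higher. ATF4 targets, with 28 of 34 higher, and heat shock proteins, with 14 of 16 lower, are among the most one-sided lists.

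The same treatment in WT SAS cells was set beside these values to ask which part of the response differed by genotype. Among the gene lists, the share of members with a called difference was highest in ATF4 targets, ribosome assembly factors and mitochondrial transcripts. In WT cells 2395 genes were called higher (15.0%) and 2420 lower (15.2%). Of the genes higher in E79Q cells, 1479 were also higher in WT cells, which is 47.8% of the E79Q list and 61.8% of the WT list. For lower genes the shared number was 1341, or 46.4% of the E79Q list and 55.4% of the WT list. A further 91 genes were higher in E79Q and lower in WT cells, and 62 the reverse. The difference of the 2 effects, E79Q minus WT, was called higher for 913 genes (5.72%) and lower for 751 (4.71%). That split turned to 1232 and 1702 with GC and length trends removed, and to 1160 and 1234 without combined library 2.

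In 28 of 34 ATF4 targets the effect was called higher in E79Q than in WT cells and in 1 lower (median difference 0.88), while in WT cells alone 3 rose and 8 fell. PHGDH, for example, had 313, 294 and 301 CPM in treated WT cells, against 306, 301 and 289.9 CPM in untreated WT cells, a log2 fold change of 0.016 (SE 0.065, edgeR adjusted p 0.878), and the difference between genotypes was 0.86 (SE 0.093, edgeR adjusted p 2.79e-07). DDIT4, a stress-induced brake on mTORC1, had 19.7, 25.1 and 22.0 CPM in combined E79Q libraries and 22.3, 23.6 and 22.9 CPM in untreated E79Q ones. In WT cells it fell to 22.4, 20.4 and 18.8 CPM under both agents, against 104, 108 and 111 CPM without, so that the difference of 2.35 came with a log2 change of -0.034 in E79Q cells and -2.39 in WT cells. Unfolded protein response genes were higher in the difference in 11 of 27 cases and lower in 0. MYC and ribosome genes were lower in it in 21 of 31 cases and higher in 1, and in WT cells alone 11 rose and 3 fell. NPM1 fell in both genotypes, with -0.71 in E79Q cells and -0.37 in WT cells, and their difference of -0.34 was not called (edgeR adjusted p 0.0544). NCL fell in both, with -0.69 in E79Q cells and -0.29 in WT cells, a difference of -0.40 (SE 0.094, edgeR adjusted p 0.00625). Mitochondrial transcripts were higher in the difference in 7 of 13 cases, and p53 targets in 8 of 30 with 2 lower. NF-kB targets were higher in it in 9 of 23 cases, class I antigen presentation genes in 8 of 24 and cytokines in 7 of 22, each with 0 lower. Heat shock proteins were lower in it in 6 of 16 cases and mesenchymal genes in 8 of 29, each with 0 higher.

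**Figure D4:**
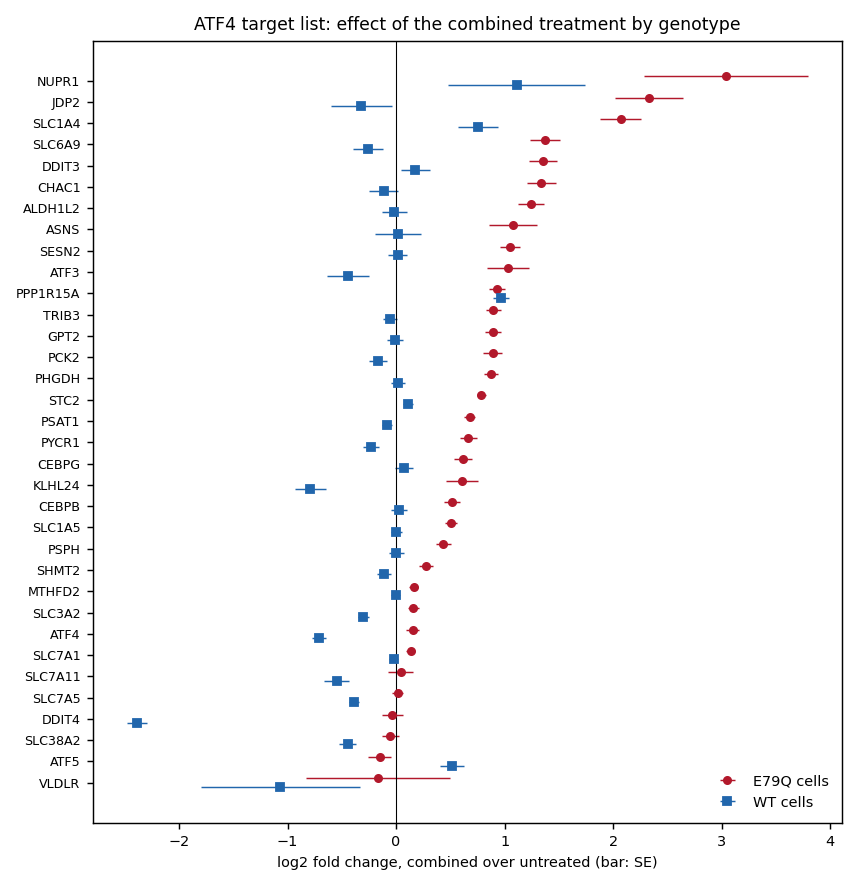
Log2 fold change of the combined over the untreated libraries for the 34 tested ATF4 targets, in E79Q cells (red circles) and WT cells (blue squares), with SE bars, ordered by the E79Q value. In E79Q cells 28 were called higher and 0 lower, and in WT cells 3 were called higher and 8 lower.

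Single genes with the largest differences in favour of E79Q cells were IGFBP3 (2.36), DDIT4, GDF15 (2.19), the hydroxy-acid receptor HCAR3 (2.13), NDRG1 (2.06) and SAA1 (2.03), as log2 differences. GDF15 had a log2 fold change of 1.52 in E79Q cells and -0.67 in WT cells. IGFBP3 rose by 1.25 in E79Q cells, and in WT cells its log2 fold change was -1.11. On the other side stood RGS4 (-2.32), the drug-metabolizing CYP2B6 (-1.99), the BMP antagonist NOG (-1.93), the calcium exchanger SLC8A1 (-1.70), INSYN2B (-1.53) and TLR4 (-1.50). RGS4 had a log2 fold change of -1.42 in E79Q cells and 0.90 in WT cells. CDKN1A rose in both genotypes, by 1.92 in E79Q and 0.67 in WT cells, with a difference of 1.25 (SE 0.12, edgeR adjusted p 2.81e-08). CXCL8 likewise rose by 1.78 in E79Q and 1.31 in WT cells, a difference of 0.47 (SE 0.12, edgeR adjusted p 0.00894). The difference for CSF2 was -0.52 (SE 0.28, edgeR adjusted p 0.27), which was not called.

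How each agent contributes was read from E79Q cells given radiation or CB-839 alone. These comparisons share the untreated libraries with the combined one, so their values are given side by side. The labels give no length of drug exposure or time of RNA collection for CB-839 alone, and no time of collection for untreated cells. Timing matched to the combined group is therefore not established, here or in the test of additivity. Radiation alone was followed by 1944 genes higher (12.2%) and 1613 lower (10.1%), and CB-839 alone by 1506 higher (9.44%) and 1661 lower (10.4%). Adding the drug to radiation changed 4141 genes, 2053 higher (12.9%) and 2088 lower (13.1%). Adding radiation to the drug changed 4667, 2445 higher (15.3%) and 2222 lower (13.9%), and 3073 without combined library 2.

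CXCL8 had 56.8, 53 and 54.0 CPM under both agents, 57.7, 67.1 and 57.2 CPM under radiation alone, 24.4, 25.3 and 23.5 CPM under CB-839 alone and 16.1, 15.7 and 15.8 CPM in untreated cells. Both irradiated groups lay above both unirradiated ones. Of the cytokine list 15 of 22 were higher and 1 lower with radiation alone, 8 and 2 with CB-839 alone, and 18 and 2 with both. Against radiation alone the combination gave 7 higher and 8 lower of 22, and against CB-839 alone 17 higher and 1 lower. CSF2 was higher under both agents than under radiation alone, 13.7, 18.4 and 17.6 CPM against 10.3, 11.9 and 11.5 CPM, a log2 difference of 0.57 (SE 0.15) with an edgeR adjusted p of 0.00713. The detoxification targets of NRF2 numbered 18 of 30 higher and 0 lower with radiation alone, and 3 higher and 7 lower with CB-839 alone. Adding the drug to radiation gave 7 higher and 7 lower. The glutathione and thioredoxin targets gave 9 of 13 higher and 0 lower with radiation alone, and 2 higher and 5 lower with CB-839 alone.

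PHGDH showed the other arrangement, with 372, 464 and 395 CPM under both agents, 192, 199 and 195 CPM under radiation alone, 419, 405 and 415 CPM under CB-839 alone and 242, 201 and 229 CPM in untreated cells. Both groups with the drug lay above both without it. Of the 34 ATF4 targets 21 were higher and 1 lower with CB-839 alone, and 8 were higher and 7 lower with radiation alone. Adding the drug to radiation raised 27 of 34 and lowered 1, and adding radiation to the drug raised 12 and lowered 0. VIM was low in both groups with the drug, at 52.3 ± 3.19 CPM under both agents, 145 ± 4.71 CPM under radiation, 56.0 ± 3.97 CPM under CB-839 and 176 ± 5.82 CPM in untreated cells (SD, n = 3 each). Between the combination and CB-839 alone VIM differed by -0.099 on the log2 scale (edgeR adjusted p 0.333). SCD averaged 193 ± 11.3 CPM under both agents, 392 ± 12.0 CPM under radiation, 201 ± 4.59 CPM under CB-839 and 573 ± 19.9 CPM in untreated cells (SD, n = 3 each).

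Some genes differed with either agent. CDKN1A averaged 145 ± 12.9 CPM under both agents, 103 ± 5.98 CPM under radiation, 62.6 ± 2.33 CPM under CB-839 and 38.2 ± 5.51 CPM in untreated cells (SD, n = 3 each). It was higher under both agents than under radiation alone (0.49 on the log2 scale, SE 0.079, edgeR adjusted p 4.82e-05) and than under CB-839 alone (1.21 on the log2 scale, SE 0.081, edgeR adjusted p 3.25e-11). ANGPTL4 averaged 10.1 ± 2.04 CPM under both agents, 3.29 ± 0.69 CPM under radiation, 4.53 ± 1.03 CPM under CB-839 and 0.76 ± 0.266 CPM in untreated cells (SD, n = 3 each). DIO2 was lowest under both agents, at 17.0 ± 4.03 CPM against 52.8 ± 2.22 CPM under radiation, 32.7 ± 1.84 CPM under CB-839 and 129 ± 12.2 CPM in untreated cells (SD, n = 3 each). Over radiation alone, the combination showed its largest rises in OVOL1 (1.70), FAM129A (1.66), ANGPTL4 (1.62) and SLC1A4 (1.58), and its largest falls in ABCA1 (-1.89), RGS4 (-1.76), DIO2 (-1.64) and VIM (-1.47). Over CB-839 alone, the rises were largest in WNT7A (2.21), RRAD (2.14), CSF2 (1.72) and CDA (1.65), and the falls in SYNE2 (-1.31), FAM111B (-1.31), MAPT (-1.23) and TRIM9 (-1.19).

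**Figure D5:**
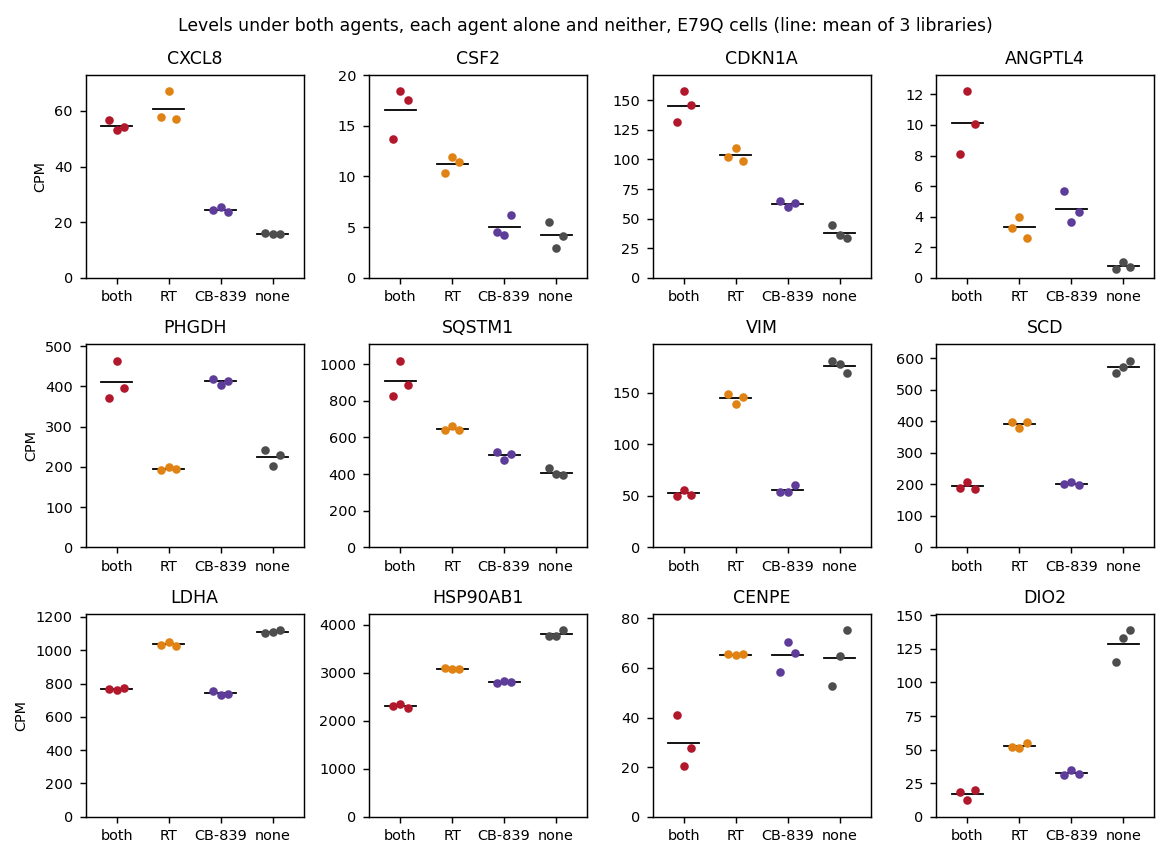
CPM of 12 genes in the 3 E79Q libraries of each group, from left to right both agents, radiation (RT) alone, CB-839 alone and neither, with the mean as a line and each axis starting at 0. CXCL8 and CSF2 are higher in irradiated cells, PHGDH is higher and VIM, SCD and LDHA lower with the drug, and CDKN1A, ANGPTL4, SQSTM1, HSP90AB1 and DIO2 are at their extreme under both. The means of SCD and VIM are also lower under radiation alone than in untreated cells.

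Whether the combination differs from the sum of the single effects was tested on the log2 scale. The combined log2 fold change lay above the sum for 1250 genes (7.83%) and below it for 1062 (6.66%). That split was 691 and 1391 when libraries were scaled by total counts alone. These are signed values, so a gene above the sum may have fallen by less than the sum, and a gene below it by more. Among called departures above 2-fold, 28 were positive and 174 negative, and the median departure of all genes tested was -0.0389. DNA repair genes lay below the sum in 8 of 35 cases and above in 1 (median -0.33), and 4 of 35 were lower with radiation alone and 1 of 35 with CB-839 alone. Their summed CPM was 4311, 3451 and 4132 in combined libraries 1, 2 and 3, lowest in library 2. The departure of this list was not refitted without that library. CENPE had 41.0, 20.3 and 27.6 CPM under both agents, 65.6, 65.1 and 65.5 CPM under radiation, 58.5, 70.6 and 66.0 CPM under CB-839 and 52.8, 64.7 and 75.2 CPM in untreated cells. The 3 values with both agents lay below the other 9, and the departure from the sum was -1.18 (SE 0.26, edgeR adjusted p 0.00602). Combined library 2 had the lowest of them. The number of departures over all genes was 567 without combined library 2 and untreated library 1 together. Leaving out 1 library gave 950 departures without untreated library 1, 1011 without CB-839 library 2, 1210 without combined library 2 and 4275 without combined library 1. Ribosome assembly genes lay above the sum in 9 of 31 cases and below in 1, and TCA cycle genes in 10 of 27 and 0. The largest positive departures among single genes were those of DEPP1 (1.70), COL1A1 (1.57), the deubiquitinase OTUD1 (1.54), the T cell ligand TNFSF9 (1.54), PLEKHG6 (1.36) and ELF3 (1.24). The value of COL1A1 was 0.54 without untreated library 2, and its call was lost without any 1 of 9 libraries, with limma-voom and with total-count scaling. The largest negative ones were those of CSF3 (-1.55), RGPD8 (-1.55), which shares sequence with other members of its family, SEC31B (-1.55), MATR3 (-1.40), ST3GAL3 (-1.36) and CLEC9A (-1.34). The calls of PLEKHG6, SEC31B, ST3GAL3 and CLEC9A were lost without combined library 2. They were also lost without 1 other library for PLEKHG6, 3 others for ST3GAL3, 4 others for CLEC9A and 8 others for SEC31B. The CLEC9A call was lost, too, with GC and length trends removed. The call of MATR3 was lost without combined library 2 and untreated library 1 together (edgeR adjusted p 0.0501). For CSF3 the combined rise of 1.41 compares with 2.35 under radiation alone and 0.61 under CB-839 alone.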

How the data were processed

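RNA-seq of SAS cells was compared as gene counts, whole reads per gene that the authors deposited as 1 raw table of 58735 genes. Per the submitters' processing notes reads were aligned with STAR to GRCh38 and counted with HTSeq, in versions and with a strand setting not given in the sources used here. The deposited table also holds a gene length column, as another quantity, used only to check for length trends. Columns were matched to libraries by their titles.

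Of 34983 genes with a read, edgeR's expression filter kept 15956, given the 8 groups. CPM are counts per 1000000 on TMM-scaled library sizes. All 24 libraries entered 1 quasi-likelihood fit (edgeR 4.0.16 in R 4.3.3, TMM scaling, 16 residual degrees of freedom, biological coefficient of variation 7.19%), and p-values were adjusted over all genes tested by Benjamini-Hochberg, with calls at 0.05. A standard error is the size of the log2 fold change divided by the square root of the F statistic. With 3 libraries in each group, an exact permutation test of 1 gene cannot go below p = 0.1, so only model-based p-values are given. The script was tested on simulated data. The members, gene lists and tests were chosen with earlier results of these data known, so a list is described by its counts and median, with no test over it.

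Genes named in the text are protein coding with a mean log2 CPM of at least 1: the 12 largest rises and 12 largest falls that were called without overlap, the 6 or 4 largest each way in the other contrasts, up to 4 members of each list in each direction by smallest p, and a fixed set of NRF2, p53, cytokine and ATF4 genes; list members outside this rule are named where a motif, a paralog or a single case called for it. Some genes that the rule names are not reported here. Same-numbered libraries of the 2 groups did not deviate together (r = -0.0798, -0.0853 and 0.0125), so the numbers were not used to pair them. Alternatives were other scaling factors, DESeq2 1.42.0, limma-voom (limma 3.58.1), other filters, the 2 groups compared alone, a test against a 1.5-fold change, a replicate block, removal of GC and length trends, and leaving out libraries. Promoter sequences are those of RefSeq on GRCh38.p14.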

Additional observations from a re-analysis of the deposited data

Results flagged for a closer look

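The effect of the combined treatment differed between E79Q and WT cells for 1664 genes by the test of the difference itself (edgeR's quasi-likelihood test, adjusted p under 0.05), and the 33 given here are those among the genes with the largest changes, the largest differences or of prior interest; list members with a called difference, such as PHGDH and NCL, are not repeated. Values below are log2 differences, E79Q effect minus WT effect. In 4 stress and growth genes the effects had opposite signs and both were called: GDF15 (2.19), HMOX1 (1.87), IGFBP3 (2.36) and NDRG1 (2.06), each higher in E79Q and lower in WT cells. ATF4 (0.86) did the same, with a rise in E79Q cells that stood at the threshold. RGS4 (-2.32), INSYN2B (-1.53) and SLC8A1 (-1.70) were lower in E79Q and higher in WT cells, and the SLC8A1 fall was not called without combined library 2 or 3.

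A fall in WT cells with no call in E79Q cells accompanied the differences of DDIT4 (2.35), HCAR3 (2.13), GCLM (0.39) and SLC7A11 (0.59). A rise in WT cells with no call in E79Q cells accompanied those of CYP2B6 (-1.99) and NOG (-1.93). ASNS (1.06), DDIT3 (1.18), LRG1 (1.76) and CSF1 (0.66) rose in E79Q cells and were not called in WT cells.

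Both genotypes rose, and E79Q cells by more, for CDKN1A (1.25), CXCL8 (0.47), IL6 (0.92), FAM129A (1.73), RRAD (1.01), SAA1 (2.03), SERPINB7 (0.94) and TMEM255B (1.23). WT cells rose by more for AKR1C1 (-0.80), TLR4 (-1.50) and ZBED2 (-0.59). Both fell, and E79Q cells by more, for ABRAXAS1 (-0.89), MN1 (-0.76) and VIM (-1.02), whereas ELF3 (0.68) fell by more in WT cells. With 3 libraries in each group, single libraries were not screened for outlying values.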

How the results depend on the processing

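The count of 5988 genes stayed within 1.5 times under the other scalings, tools and filters tried, for example 5950 with DESeq2 and 6083 with limma-voom. With only the compared groups in the fit, counts of calls fell to 3370 for the combined effect, 879 for the difference from WT cells, 1601 against radiation alone, 1667 against CB-839 alone and 831 for departures from additivity. A test against a 1.5-fold change left 612, 83, 79, 71 and 14 in the same order. Removing GC and length trends raised the difference from WT cells to 2934, or 2853 with the replicate block, and turned its split to more lower than higher calls. Departures from additivity fell to 567 without combined library 2 and untreated library 1 together. Leaving out 1 library at a time gave 4985 to 6234 for the combined effect, 1299 to 2394 for the difference from WT cells, 2856 to 5276 against radiation alone, 3073 (without combined library 2) to 5683 against CB-839 alone and 950 to 4275 for departures, with the extremes of the last without untreated library 1 and without combined library 1. With the replicate block in the fit the counts were 5803, 1524, 3900, 4421 and 1883 in that order, and the ATF4 rise and the COL1A1 and SEC31B departures were not called (adjusted p 0.0602, 0.0658 and 0.0545). The numbers did not pair the libraries, and 4 of 24 were closest to a library of their own number. Signs turned for GCLM (0.19 with trends removed, 0.19 also with the block), the mesenchymal median (0.074 with limma-voom, and -0.13 to 0.093 leaving out 1 library at a time) and the glutamine median (-0.013 without combined library 1); the cause was not tested. Medians no larger than their spread between libraries also turned, at the furthest to -0.043 for NADPH genes and 0.043 for YAP targets (both without combined library 2), 0.042 for TCA cycle genes (without combined library 1), -0.017 for sterol efflux genes (trends removed) and, for markers of other cell types, -1.58 under a filter of 1 CPM in 12 libraries, which left 3 of them. In all, 651 alternative values of list medians stayed within that spread, 84 moved by more and 3 turned. Over the named genes 5555 alternative values kept sign and side of the threshold, 380 lost a call, 21 gained one and 2 turned. The log2 fold change followed transcript GC content across genes (r = 0.202), and r was 0.112 without combined library 2 and untreated library 1. Depth limits genes of under 2 CPM, where 411 of the 727 rises and 150 of the 217 falls above 2-fold lie.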
